A study of Mus musculus with 8 samples.

Results

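The 10 genes described here make, regulate and break down the polyamines putrescine, spermidine and spermine in mouse prostate epithelium. They are Odc1, Amd1, Srm and Sms of synthesis, Oaz1, Azin1 and Azin2 of the antizyme system, and Sat1, Smox and Paox of catabolism. They were chosen by symbol, as the rows whose Ensembl identifier maps to 1 of these names, and make up 10 of 55335 identifiers in the deposited tables. The rule itself used no measured values, though the members were chosen with earlier results of these data known.

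RNA was measured in sorted EpCAM+, CD24a+, CD49f-low prostate cells of 4 groups with 2 libraries each, named A and B. The labels give all 8 libraries, controls included, 1 shared prostate genotype (PP), and the PPK groups carry Kmt2cPC-/- in addition. Kmt2c encodes a histone methyltransferase that acts at enhancers. Sham mice were 3.5 months old and ADT mice 6.5 months old, ADT standing in common usage for androgen deprivation therapy. Age and treatment therefore change together and cannot be told apart. The labels name neither the driver of the deletions nor the way in which androgen was lowered, and do not say whether A and B came from separate animals. The p-values below thus reflect the spread between libraries alone, which may be technical.

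Polyamines are small positively charged molecules that bind RNA and DNA and are needed for cell growth, and the prostate is known for making and secreting large amounts of them. Ornithine decarboxylase forms putrescine, and aminopropyl groups from decarboxylated S-adenosylmethionine turn it into spermidine and then spermine. Antizyme, whose translation rises with polyamines, carries ornithine decarboxylase to the proteasome, antizyme inhibitors bind antizyme in its place, and acetylation and oxidation return spermine and spermidine to putrescine.

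Levels are FPKM, fragment counts corrected for the length of a gene and the size of a library, so levels of different genes can be set side by side. Summed over all genes, FPKM came to 284015 and 286111 in PP ADT and to 329204 and 333977 in PPK ADT. The sham libraries lay between. Differences are log2 fold changes of FPKM + 1, which understate changes of genes at low level. A difference passed when limma, fitted to all 14000 genes with at least 1 FPKM in at least 2 libraries, gave a two-sided Benjamini-Hochberg adjusted p under 0.05. All 10 members were among the genes tested, Paox through its higher libraries, since both PP sham libraries and 1 PPK sham library were under 1 FPKM.

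Kmt2c itself was listed at 13.3 and 13.9 FPKM in PP sham, 8.67 and 8.15 FPKM in PPK sham, 10.3 and 9.33 FPKM in PP ADT, and 6.60 and 6.36 FPKM in PPK ADT. It was lower in PPK at both stages but not absent, with log2 fold changes of -0.63 ± 0.066 in sham (SE, limma adjusted p = 0.000795) and -0.53 ± 0.066 in ADT (adjusted p = 0.00054). The summed level of 8 luminal markers was 5544 to 5618 FPKM in PP sham, 5423 to 5508 FPKM in PPK sham, 6435 to 6483 FPKM in PP ADT and 2260 to 2282 FPKM in PPK ADT. Over 10 basal and squamous markers the sums were 1087 to 1099, 1499 to 1511, 1019 to 1031 and 7751 to 7840 FPKM in the same order. The PPK ADT libraries thus stood apart in epithelial markers. Fibroblast sums over 8 markers were 6.23 to 6.81, 20.0 to 20.5, 5.10 to 5.45 and 44.8 to 47.0 FPKM in that order. Smooth muscle sums over 6 markers were 2.1 to 2.2, 5.6 to 5.9, 1.8 to 2.3 and 11.89 to 11.96 FPKM. Both sums were thus higher in PPK than in PP in sham as well as in ADT. The part of these cells in the results below was not tested. Lymphocyte sums stayed at or under 0.687 FPKM.

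**Figure D1:**
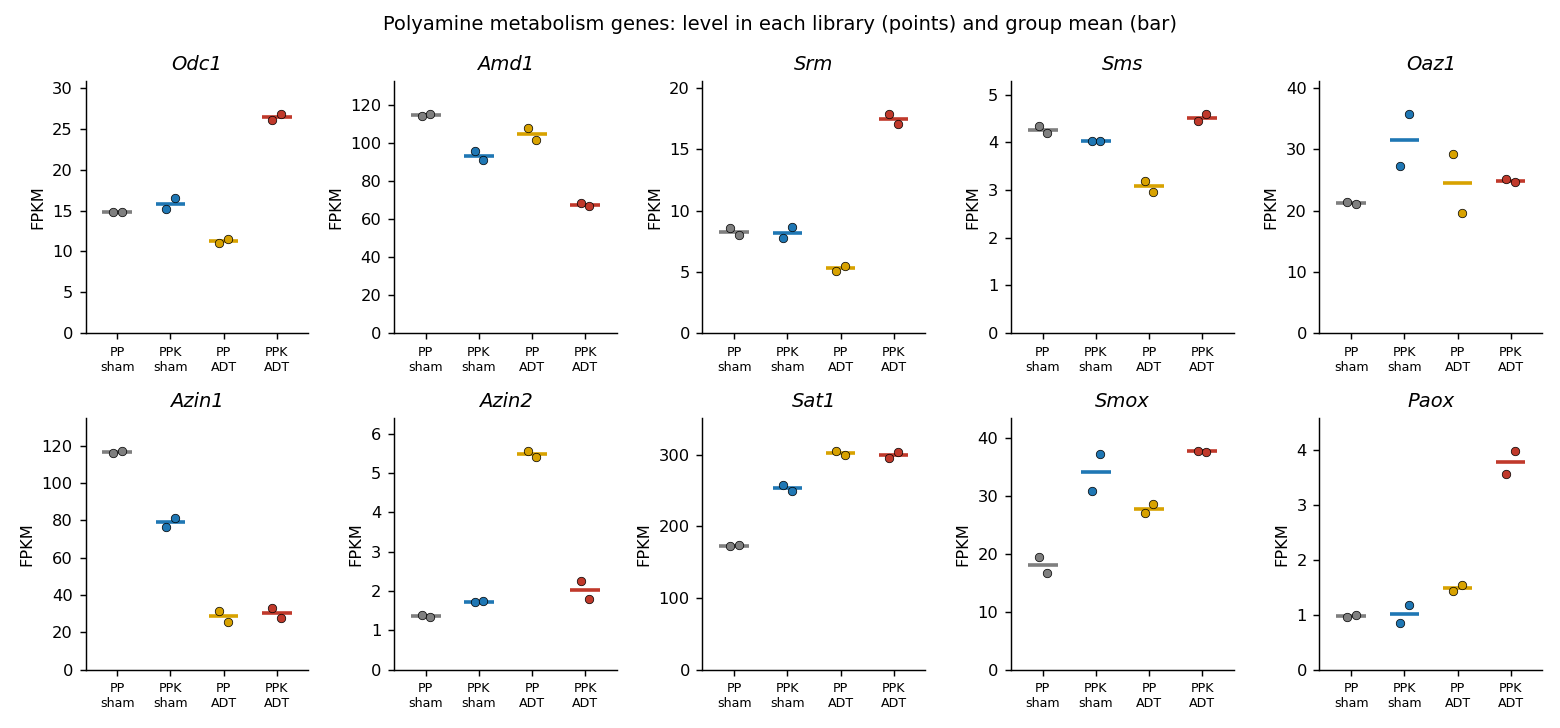
Level of the 10 polyamine genes in FPKM (vertical axis, linear, from 0) in the 4 groups (horizontal axis). Points are single libraries and bars are means of 2 libraries. Odc1, Srm and Paox are highest in PPK ADT and Amd1 is lowest there, while Sat1 is lowest and Azin1 highest in PP sham.

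Synthesis begins with Odc1, ornithine decarboxylase, the enzyme that forms putrescine (chr12:17544794-17551505, plus strand, GRCm38). It was listed at 14.9 FPKM in both PP sham libraries, 15.2 and 16.5 FPKM in PPK sham, 11.0 and 11.5 FPKM in PP ADT, and 26.1 and 26.9 FPKM in PPK ADT. The 4 groups did not overlap, with PP ADT lowest and PPK ADT highest. In ADT mice Odc1 was 2.35-fold higher in PPK than in PP (log2 fold change 1.17 ± 0.052 SE, limma adjusted p = 4.22e-06). In sham mice the difference was 0.08 ± 0.052, with a 95% interval of -0.0416 to 0.211 and an adjusted p of 0.286. From sham to ADT, Odc1 fell in PP (-0.38 ± 0.052, adjusted p = 0.00158) and rose in PPK (0.71 ± 0.052, adjusted p = 4e-05). The effect of the PPK genotype was larger in ADT than in sham by 1.08 ± 0.074 on the log2 scale (adjusted p = 4.3e-05). In these bulk samples, fewer cells of a type and less RNA per cell cannot be told apart. PPK ADT is also the group with the highest basal and squamous sum, given above, and the part of that shift in the Odc1 result was not tested.

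The promoter window of Odc1 is shown because the 4 groups did not overlap in Odc1 level, as was also so for Sms, Amd1, Azin2 and Smox. It runs from 250 bases before to 50 bases after the start site (RefSeq, GRCm38.p6, chr12:17544623-17544922, plus strand, written 5′ to 3′). Capitals mark the GC box GGGCGG on either strand, the sequence that Sp1 family factors are known to bind. The window held 4 of them at a GC content of 78.0%.
Odc1: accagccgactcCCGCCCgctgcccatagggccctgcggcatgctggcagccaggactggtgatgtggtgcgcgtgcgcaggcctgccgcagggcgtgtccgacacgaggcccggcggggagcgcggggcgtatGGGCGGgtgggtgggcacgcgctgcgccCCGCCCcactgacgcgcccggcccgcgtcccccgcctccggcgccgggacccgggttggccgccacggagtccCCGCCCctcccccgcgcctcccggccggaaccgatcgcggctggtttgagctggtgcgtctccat

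Srm, spermidine synthase, adds the first aminopropyl group (chr4:148591503-148594993, plus strand). Its levels were 8.54 and 7.98 FPKM in PP sham, 7.75 and 8.63 FPKM in PPK sham, 5.09 and 5.47 FPKM in PP ADT, and 17.9 and 17.1 FPKM in PPK ADT. The sham groups overlapped, PP ADT was below them and PPK ADT above. Under ADT Srm was 3.31-fold higher in PPK than in PP (log2 fold change 1.56 ± 0.071, limma adjusted p = 4.54e-06), against -0.01 ± 0.071 in sham (95% interval -0.184 to 0.159, adjusted p = 0.927). It fell from sham to ADT in PP (-0.56 ± 0.071, adjusted p = 0.00103) and rose in PPK (1.01 ± 0.071, adjusted p = 3.11e-05). Of the 6606 genes compared by the pattern of log2(FPKM + 1) over the 8 libraries, Srm was the second most like Odc1, with a Pearson correlation of 0.995. The others named by that measure were Itgb5, an integrin subunit, at 0.996, and Eif3i, a translation initiation factor subunit, at 0.993. Like Odc1 and Srm, both were highest in PPK ADT, Itgb5 at 29.2 and 31.1 FPKM and Eif3i at 26.4 and 26.9 FPKM. The 8 points share 4 groups, so this is a description of the group pattern.

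Sms, spermine synthase, adds the next aminopropyl group (chrX:157443855-157492287, minus strand). It stood at 4.34 and 4.20 FPKM in PP sham, 4.03 and 4.04 FPKM in PPK sham, 3.19 and 2.97 FPKM in PP ADT, and 4.44 and 4.60 FPKM in PPK ADT. No groups overlapped, but the highest mean was only 1.47 times the lowest, the narrowest range of the 4 synthesis genes. Sms was higher in PPK than in PP under ADT (0.44 ± 0.066, limma adjusted p = 0.00138) and fell from sham to ADT in PP (-0.37 ± 0.066, adjusted p = 0.00478). The difference in sham (-0.07 ± 0.066, adjusted p = 0.517) and the change in PPK (0.13 ± 0.066, adjusted p = 0.124) did not pass.

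Amd1, S-adenosylmethionine decarboxylase, supplies the aminopropyl groups (chr10:40287458-40302186, minus strand) and went the other way. It was listed at 114 and 115 FPKM in PP sham, 95.5 and 90.9 FPKM in PPK sham, 108 and 102 FPKM in PP ADT, and 68.3 and 66.7 FPKM in PPK ADT. The groups were all apart, and PPK was below PP at both stages. Amd1 was lower in PPK by 0.30 ± 0.039 in sham (a log2 fold change of -0.30, limma adjusted p = 0.00216) and by 0.62 ± 0.039 in ADT (-0.62, adjusted p = 2e-05). It fell from sham to ADT in PPK (-0.46 ± 0.039, adjusted p = 8.08e-05). In PP it passed with a small change (-0.13 ± 0.039, adjusted p = 0.0353), which did not pass with median-of-ratios scaling (-0.05, adjusted p = 0.375). It also did not pass without PP sham library A or B, PP ADT library B, or PPK ADT library A or B, in 5 of the 8 fits that left out a library (adjusted p = 0.0512 to 0.161).

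Amd1 messenger RNA is known to carry a short upstream reading frame through which polyamines lower its translation. That frame was found by its translation in the RefSeq window (GRCm38.p6, minus strand), beginning at base 14 after the start site and spanning 21 bases. It is printed below with 3 flanking bases on each side and with the start and stop codons in capitals. FPKM measure RNA only, so nothing here reports on translation.
Amd1: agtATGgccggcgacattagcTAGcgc

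Amd1 and Srm thus moved in opposite directions in PPK ADT. The ratio of Amd1 to Srm, both in FPKM, was 13.4 and 14.4 in PP sham, 12.3 and 10.5 in PPK sham, 21.1 and 18.6 in PP ADT, and 3.82 and 3.91 in PPK ADT. PPK ADT was lowest in this ratio and PP ADT highest, without overlap. Ratios are given without a test.

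The antizyme system is encoded by Oaz1, the antizyme gene, and by Azin1 and Azin2, the antizyme inhibitors, which resemble ornithine decarboxylase but have no decarboxylase activity. Oaz1 (chr10:80826656-80829290, plus strand) was listed at 21.4 and 21.02 FPKM in PP sham, 27.2 and 35.8 FPKM in PPK sham, 29.2 and 19.6 FPKM in PP ADT, and 25.1 and 24.6 FPKM in PPK ADT. The PPK sham libraries were above those of PP sham and PPK ADT and overlapped those of PP ADT. The libraries of PPK sham and of PP ADT differed among themselves, and no comparison of Oaz1 passed. The closest was PPK against PP in sham (0.54 ± 0.19, 95% interval 0.0793 to 0.998, limma adjusted p = 0.0833), where the adjusted p was 0.0289 without PP ADT library A and 0.0288 without PP ADT library B.

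Antizyme is made only when the ribosome shifts frame by 1 base at a stop codon, which polyamines are known to promote. The site is printed because the annotated transcripts differ there, with the codon before the stop, the stop and the next base in capitals, 5′ to 3′. Oaz1-205 of the GENCODE M21 annotation on GRCm38 (chromosome 10) and the processed copy Oaz1-ps (chromosome 17) keep the whole stop codon. In Oaz1-202, as in Oaz1-203 and Oaz1-207, the transcript model leaves out the base that is skipped.
Oaz1-205: cctcggtggtgcTCCTGATgtccctcaccc
Oaz1-ps: cctcggtggtgcTCCTGATgtccctcaccc
Oaz1-202: cctcggtggtgcTCCGATgtccctcaccc

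Reads of Oaz1 and Oaz1-ps are hard to separate, since the transcripts were 98.5% identical over 685 bases. Oaz1-ps was listed at 49.8 and 53.6 FPKM in PP sham, 45.5 and 39.6 FPKM in PPK sham, 45.3 and 47.4 FPKM in PP ADT, and 62.2 and 65.9 FPKM in PPK ADT. It was above Oaz1 itself in all 8 libraries, and its 2 lowest libraries were the PPK sham library B and PP ADT library A, those in which Oaz1 was highest. The copy held 22.9% to 41.8% of the length-weighted level of the pair. With the copy added, Oaz1 came to 34.7 and 35.4 FPKM in PP sham, 39.4 and 46.4 FPKM in PPK sham, 41.4 and 32.3 FPKM in PP ADT, and 41.8 and 42.3 FPKM in PPK ADT. No comparison of the sum passed, and the difference in sham was 0.28 ± 0.12 (limma adjusted p = 0.136). The level of Oaz1 is therefore uncertain.

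Azin1, the broadly expressed antizyme inhibitor, showed the widest range of the 10 genes (chr15:38487427-38519266, minus strand). It was listed at 116 and 117 FPKM in PP sham, 76.4 and 81.4 FPKM in PPK sham, 31.6 and 25.5 FPKM in PP ADT, and 33.0 and 27.6 FPKM in PPK ADT. The ADT groups overlapped and lay below both sham groups, and the highest mean was 4.08 times the lowest. From sham to ADT Azin1 fell in both genotypes, with a log2 fold change of -1.999 ± 0.11 for PP (limma adjusted p = 2.52e-05) and of -1.36 ± 0.11 for PPK (adjusted p = 7.39e-05). In sham mice it was lower in PPK (-0.56 ± 0.11, adjusted p = 0.0125), a difference that did not pass without PP sham library A (0.0568), PP sham library B (0.061) or PPK sham library A (0.0696). In ADT mice it was 0.08 ± 0.11 (95% interval -0.192 to 0.359, adjusted p = 0.561). The summed level of 5 seminal vesicle secretion genes was 1186 to 1187 FPKM in PP sham, 517 to 520 FPKM in PPK sham and at most 0.811 FPKM in ADT. Between the sham groups Svs2 and Svs5 were lower in PPK, while Svs4 and Svs6 were higher and Svs1, not tested, went from 0 to 0.898 and 0.796 FPKM. The part of these genes' source in the Azin1 result was not tested.

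Azin2, the inhibitor best known from testis and brain, ran against Azin1 in PP (chr4:128930233-128962442, minus strand). Its levels were 1.38 and 1.33 FPKM in PP sham, 1.72 and 1.74 FPKM in PPK sham, 5.57 and 5.40 FPKM in PP ADT, and 2.25 and 1.81 FPKM in PPK ADT. The groups were apart, with PP ADT well above the rest. Azin2 was 4.04-fold higher in PP ADT than in PP sham (1.46 ± 0.091, limma adjusted p = 3.77e-05), while the change in PPK did not pass (0.15 ± 0.091, adjusted p = 0.205). PPK ADT was lower than PP ADT (-1.10 ± 0.091, adjusted p = 7.34e-05). Azin1 stayed the more abundant inhibitor in every library.

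Set against its regulators, Odc1 was highest in PPK ADT. The ratio of Odc1 to Oaz1 was 0.697 and 0.708 in PP sham, 0.558 and 0.461 in PPK sham, 0.376 and 0.585 in PP ADT, and 1.04 and 1.09 in PPK ADT, and it carries the uncertainty of Oaz1. The ratio of Odc1 to Azin1 was 0.128 and 0.127 in PP sham, 0.199 and 0.203 in PPK sham, 0.348 and 0.450 in PP ADT, and 0.792 and 0.972 in PPK ADT. The latter ratio separated all 4 groups and was lowest in PP sham.

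**Figure D2:**
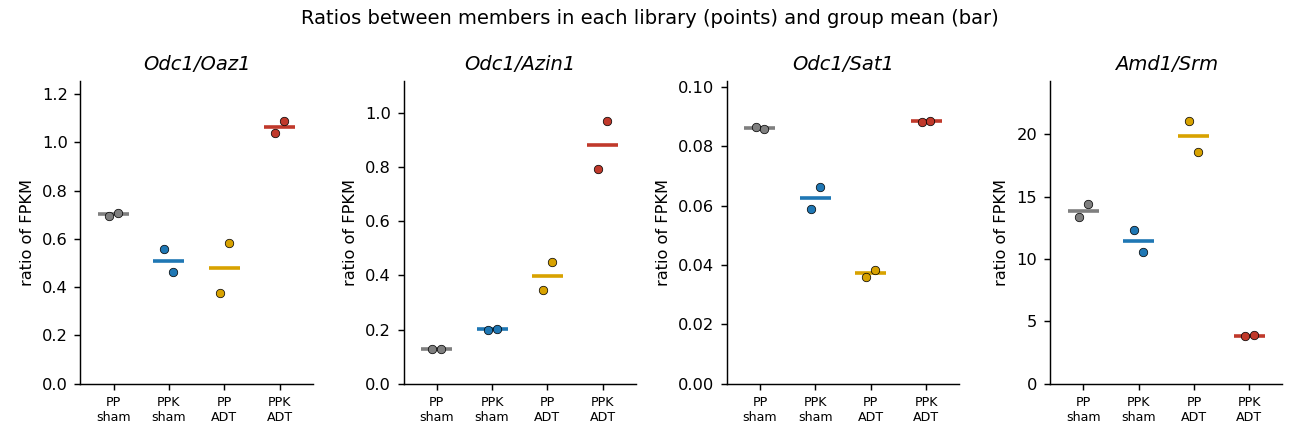
Ratios of FPKM between pairs of polyamine genes (vertical axes, linear, from 0) in the 4 groups (horizontal axis). Points are libraries and bars are means of 2. The Odc1 ratios to Oaz1 and Azin1 are highest in PPK ADT, at 1.04 and 1.09 and at 0.792 and 0.972, and the Amd1 to Srm ratio is lowest there, at 3.82 and 3.91.

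Catabolism begins with Sat1, spermidine/spermine acetyltransferase, which marks polyamines for oxidation or export (chrX:155213132-155216449, minus strand). It was the most abundant of the 10 genes, at 172 and 173 FPKM in PP sham, 258 and 249 FPKM in PPK sham, 306 and 299 FPKM in PP ADT, and 296 and 303 FPKM in PPK ADT. PP sham was lowest, PPK sham lay between, and the ADT groups overlapped. Sat1 was 1.47-fold higher in PPK than in PP in sham (0.55 ± 0.028, limma adjusted p = 4.25e-05) and rose from sham to ADT 1.75-fold in PP (0.80 ± 0.028, adjusted p = 3.07e-06). In PPK the change was 0.24 ± 0.028 (adjusted p = 0.000393), and it did not pass after quantile normalization (0.03, adjusted p = 0.385). Between the genotypes in ADT the difference was -0.01 ± 0.028 (95% interval -0.082 to 0.0552, adjusted p = 0.713). That last value depended on scaling and passed as lower in PPK with median-of-ratios scaling (-0.12, adjusted p = 0.0174) and quantile normalization (-0.35, adjusted p = 1e-04).

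The genes whose pattern over the 8 libraries was most like Sat1 were Vmp1, an autophagy protein of the endoplasmic reticulum (Pearson correlation 0.998), Gda, guanine deaminase (0.998), and Smcr8, a partner of C9orf72 (0.997). Vmp1 ran from 39.4 FPKM in PP sham library A to 79.4 FPKM in PP ADT library A. The summed level of 12 macrophage and monocyte markers was 65.4 to 65.6 FPKM in PP sham, 133 to 135 FPKM in PPK sham, 136 to 146 FPKM in PP ADT and 53.6 to 54.4 FPKM in PPK ADT. Cd14 alone set the low sum of PPK ADT, at 16.4 and 13.6 FPKM against 41.3 to 101.4 FPKM elsewhere. Without it the other 11 markers summed to 23.6 to 24.3 FPKM in PP sham, 43.55 to 43.85 FPKM in PPK sham, 39.4 to 44.6 FPKM in PP ADT and 38.1 to 39.99 FPKM in PPK ADT. That sum was lowest in PP sham, as Sat1 was. Of the 7 markers tested, Cd68, Cd14, Lyz2, C1qa, C1qb and C1qc were higher and Mrc1 was lower in PPK sham against PP sham. The same held in ADT against sham in PP, and Sat1 was higher in both comparisons. Sat1 was also higher in ADT against sham in PPK, where Lyz2 was the only marker called higher. There Cd14 and Mrc1 were lower, and the other 4 markers tested did not pass. Ptprc stayed at or under 0.188 FPKM in all libraries, and Fcgr1 was at 0 in PP sham and between 0.0302 and 0.248 FPKM in the other groups. The part of these cells in the Sat1 result was not tested.

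Smox, spermine oxidase, turns spermine straight into spermidine and releases hydrogen peroxide (chr2:131491496-131525922, plus strand). It was listed at 19.4 and 16.6 FPKM in PP sham, 30.9 and 37.2 FPKM in PPK sham, 27.0 and 28.5 FPKM in PP ADT, and 37.7 and 37.5 FPKM in PPK ADT. The groups were apart, and PPK was above PP at both stages. In sham mice Smox was 1.89-fold higher in PPK (0.88 ± 0.10, limma adjusted p = 0.00118). In ADT mice it was 1.35-fold higher (0.42 ± 0.10, adjusted p = 0.0107), which did not pass without PP ADT library A (0.0586) or PPK ADT library A (0.0512). It rose from sham to ADT in PP (0.60 ± 0.10, adjusted p = 0.00362) and did not pass in PPK (0.15 ± 0.10, adjusted p = 0.249).

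Paox, the peroxisomal oxidase of acetylated polyamines, was the member with the lowest levels (chr7:140115799-140137224, plus strand). It was listed at 0.952 and 0.993 FPKM in PP sham, 0.853 and 1.18 FPKM in PPK sham, 1.43 and 1.54 FPKM in PP ADT, and 3.56 and 3.99 FPKM in PPK ADT. The sham groups overlapped and PPK ADT was above all others. Under ADT Paox was 2.54-fold higher in PPK than in PP (0.94 ± 0.11, limma adjusted p = 0.000328) and 3.72-fold higher in PPK ADT than in PPK sham (1.25 ± 0.11, adjusted p = 7.74e-05). In PP the change from sham to ADT passed narrowly (0.33 ± 0.11, adjusted p = 0.0436), and not without the filter on low values (adjusted p = 0.108). Nor did it pass in 6 of the 8 fits that left out a library, those without a PP sham, PP ADT or PPK ADT library (adjusted p = 0.0565 to 0.156). Echs1, on the opposite strand, overlaps Paox and was listed above it in every library. Its level was also highest in PPK ADT, at 6.62 and 5.44 FPKM against 3.38 to 4.89 FPKM elsewhere. The part of Echs1 in the Paox result was not tested. The libraries are strand-specific per the labels, but the sources used here do not say whether fragments were counted by strand.

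The promoter windows of Sat1 and Smox, which were both higher in PPK sham, and of Paox, which was higher in PPK ADT as Odc1 was, are shown for comparison with that of Odc1 (RefSeq, GRCm38.p6, 5′ to 3′, GC boxes on either strand in capitals). They lie at chrX:155216400-155216699 on the minus strand, chr2:131491612-131491911 on the plus strand and chr7:140125407-140125706 on the plus strand. The windows of Smox and Paox lie wholly inside the gene spans given above, which begin at 131491496 and 140115799. Their RefSeq start sites thus differ from the first base of those spans. The Sat1 window held 2 GC boxes, that of Smox 6 and that of Paox 3, the last including a pair that shares bases.
Sat1: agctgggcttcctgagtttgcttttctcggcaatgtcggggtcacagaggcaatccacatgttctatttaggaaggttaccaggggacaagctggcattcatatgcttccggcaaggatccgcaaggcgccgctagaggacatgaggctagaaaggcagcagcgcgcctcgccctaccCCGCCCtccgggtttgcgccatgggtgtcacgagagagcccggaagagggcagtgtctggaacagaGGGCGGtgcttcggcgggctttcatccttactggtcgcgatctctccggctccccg
Smox: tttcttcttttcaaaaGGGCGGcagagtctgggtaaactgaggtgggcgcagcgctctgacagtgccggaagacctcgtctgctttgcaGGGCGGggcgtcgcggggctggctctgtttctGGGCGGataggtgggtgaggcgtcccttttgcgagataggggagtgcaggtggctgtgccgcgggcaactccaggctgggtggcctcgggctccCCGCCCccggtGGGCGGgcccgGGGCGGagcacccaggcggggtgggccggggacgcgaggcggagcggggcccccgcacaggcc
Paox: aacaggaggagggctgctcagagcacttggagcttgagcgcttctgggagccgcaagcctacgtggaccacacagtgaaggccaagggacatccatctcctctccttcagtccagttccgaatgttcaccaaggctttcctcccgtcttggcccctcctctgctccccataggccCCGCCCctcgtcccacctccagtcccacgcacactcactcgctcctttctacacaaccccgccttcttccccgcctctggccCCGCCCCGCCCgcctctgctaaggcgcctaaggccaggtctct

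RefSeq windows were matched for 7 members, with 9 windows in all. Both windows of Paox share 272 of their bases and the same GC boxes. The GC box was found in 7 of the 9 windows, in at least 1 window of 6 of the 7 members, and in 35.7% of all 32851 mouse promoter windows of the same length. The median GC content of those windows was 52.7%, and the printed windows of Odc1, Sat1, Smox and Paox were at 78.0%, 60.3%, 71.0% and 63.3%. Of the other motifs searched on both strands, AGAACA, the androgen response element half-site, was found only in Sat1 (19.0% of all windows), the E-box CACGTG only in a Sms window (7.2%), TATAAA only in Oaz1 (13.6%), TGACG in Amd1, Oaz1 and Odc1 (20.8%) and CCAAT in Oaz1 and Sms (37.4%). These matches are letters in a window and not sites of binding.

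The ratio of Odc1 to Sat1, the first steps of synthesis and catabolism, was 0.0864 and 0.0859 in PP sham, 0.0589 and 0.0664 in PPK sham, 0.0360 and 0.0385 in PP ADT, and 0.0882 and 0.0886 in PPK ADT. PP ADT was lowest. PPK ADT was slightly above PP sham without overlap, and both genes were listed at a higher level there.

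Apart from Oaz1, the members with near-identical annotated copies were Amd1, Sms, Paox, Odc1, Sat1 and Srm. The copies of Amd1 were Amd2, a protein-coding gene 99.6% identical over 3202 bases and listed at 16.8 to 32.1 FPKM, Amd-ps3 at 11.98 to 21.8 FPKM and Amd-ps4 at 3.85 to 7.47 FPKM. All 3 were lowest in PPK ADT, as Amd1 was, and the copies together held 20.1% to 24.6% of the length-weighted level. Sms-ps was 100% identical to Sms over 1101 bases and stood at 1.78 to 4.003 FPKM. For Paox the copy was Gm19680, 99.9% identical over 1358 bases, at 0.657 to 3.08 FPKM and highest in PPK ADT as well. The copies of Odc1 at 1 FPKM or more were Gm17709, at 2.44 to 4.34 FPKM, and Gm7993, at 0.507 to 1.81 FPKM, and those of Sat1 were Gm5552, at 1.85 to 3.24 FPKM, and Gm46610, at 0.781 to 1.48 FPKM. Copies held 8.18% to 13.8% of the level of Odc1 and at most 0.31% of that of Sat1. The copy of Srm, Gm5364, stayed at or under 0.270 FPKM, while Azin1, Azin2 and Smox had none. When each gene was summed with its copies, the only call lost among the members was Paox from sham to ADT in PP (adjusted p = 0.0543).

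**Figure D3:**
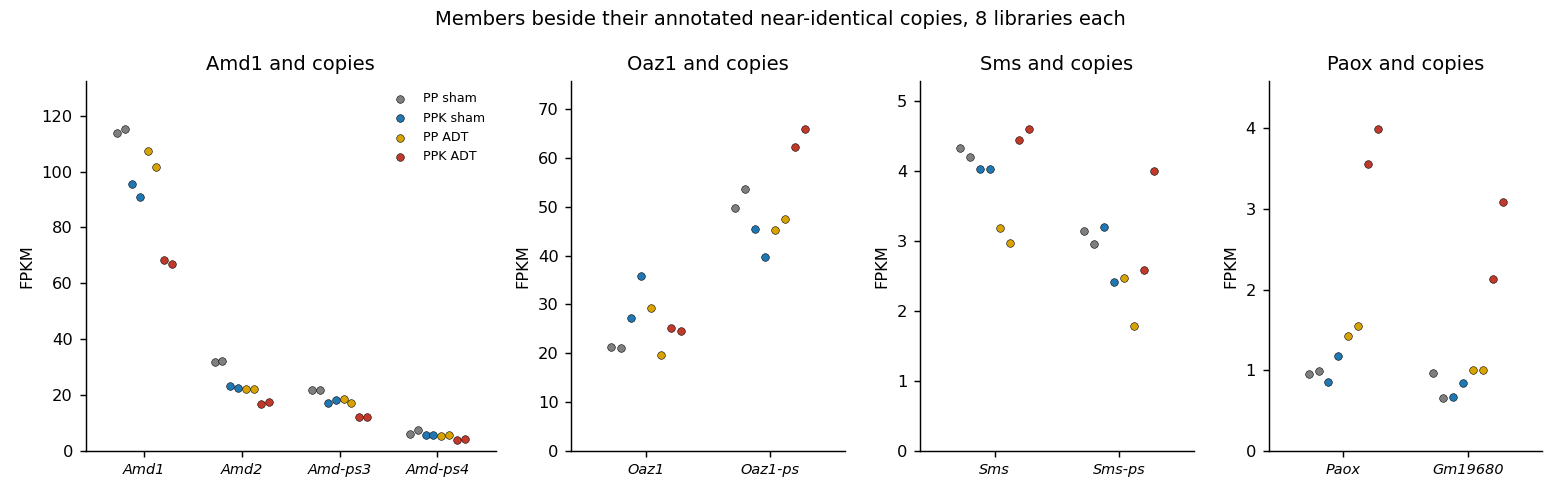
Level in FPKM (vertical axes, linear, from 0) of Amd1, Oaz1, Sms and Paox and of their near-identical annotated copies at 1 FPKM or more. Each point is 1 library, coloured by group and ordered from PP sham to PPK ADT. Oaz1-ps lies above Oaz1 in all 8 libraries, while Amd2 and the Amd pseudogenes lie below Amd1 and are lowest in PPK ADT, as Amd1 is.

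Comparing the genotypes in sham mice asks what the added Kmt2c deletion does before ADT. Sat1 and Smox of catabolism were higher in PPK, Amd1 and Azin1 were lower, and Odc1, Srm, Sms, Oaz1, Azin2 and Paox did not pass. The 2 members that were higher stand beside 13.7% of all genes tested, and the 2 that were lower beside 14.9%. The median log2 fold change of the members was 0.06 against -0.02 over all genes, and with 2 of 10 in each direction the shares were near the background.

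In ADT mice the same comparison gave more differences. Odc1, Srm and Sms of synthesis and Smox and Paox of catabolism were higher in PPK, Amd1 and Azin2 were lower, and Sat1, Azin1 and Oaz1 did not pass. The 5 higher members stand beside 32.5% of all genes, and the 2 lower ones beside 27.1%. The members' median was 0.25 against 0.05 over all genes.

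From sham at 3.5 months to ADT at 6.5 months, 9 of the 10 genes changed in PP. Azin2, Sat1, Smox and Paox rose and Azin1, Srm, Odc1, Sms and Amd1 fell, so that all 4 synthesis enzymes were lower and all 3 catabolic enzymes higher, while Oaz1 did not pass (0.17 ± 0.19, limma adjusted p = 0.503). Among all genes 19.0% rose and 25.1% fell. Against that background 4 members rose and 5 fell, with a median of 0.02 against -0.07. The smallest changes, those of Amd1 and Paox, were the ones that did not pass under the settings named above.

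The same comparison in PPK gave another set. Odc1, Srm, Paox and Sat1 rose, Azin1 and Amd1 fell, and Sms, Azin2, Oaz1 (-0.32 ± 0.19, limma adjusted p = 0.191) and Smox did not pass. That is 4 higher members beside 32.0% of all genes and 2 lower ones beside 30.7%. The median was 0.15 against 8.57e-05 over all genes.

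The difference between the genotype effects, ADT minus sham, was tested directly. It passed as positive for Srm, Odc1, Paox, Azin1 and Sms, and as negative for Azin2, Sat1, Smox and Amd1, that of Smox not passing in 6 of the 8 fits that left out a library. These 5 and 4 members stand beside 30.0% and 22.8% of all genes tested, and the median was 0.09 both for the members and for all genes. For Azin1 the PPK effect was -0.56 in sham and 0.08 in ADT, and for Sat1 it was 0.55 in sham and -0.01 in ADT. For Oaz1 the difference was -0.49 ± 0.27 (limma adjusted p = 0.176), and it passed without PP ADT library B (-0.76, adjusted p = 0.0247). The 5 comparisons share groups, so their calls are not independent of each other.

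**Figure D4:**
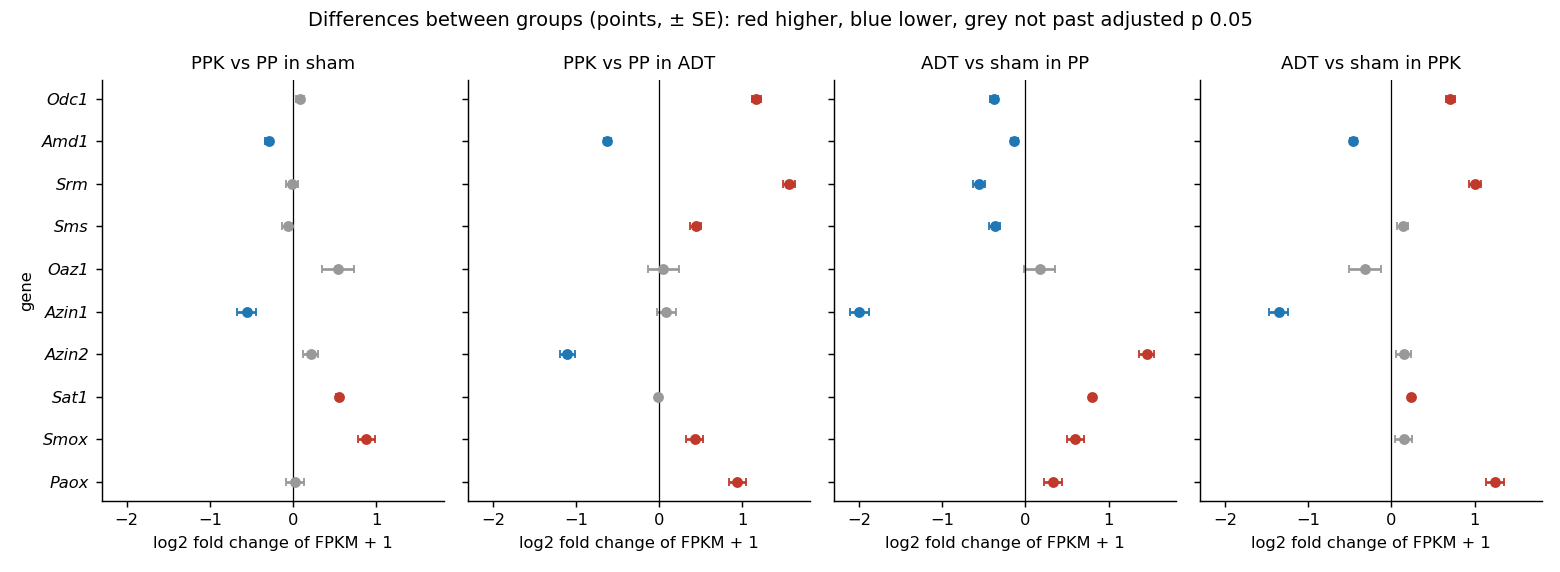
Log2 fold change of FPKM + 1 (horizontal axes) for the 10 polyamine genes in 4 comparisons of group means. Points are fitted values and bars are ± 1 SE from limma, red for higher and blue for lower at an adjusted p under 0.05, grey otherwise. Odc1 and Srm lie to the right in PPK against PP under ADT, at 1.17 and 1.56, and to the left in ADT against sham in PP, at -0.38 and -0.56.

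The wider pathway was read from a list of 34 further genes of arginine and ornithine supply, S-adenosylmethionine supply and salvage, hypusine formation, other antizymes and acetyltransferases, and transport. Of these, 23 were tested. In PPK against PP, 3 were higher and 8 lower in sham, beside 13.7% and 14.9% of all genes tested, and 7 higher and 7 lower in ADT, beside 32.5% and 27.1%. From sham to ADT, 4 rose and 7 fell in PP, beside 19.0% and 25.1%, and 6 rose and 9 fell in PPK, beside 32.0% and 30.7%. The difference of genotype effects passed as positive for 8 and as negative for 1, beside 30.0% and 22.8%.

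Among the entry enzymes, Ass1, argininosuccinate synthase, was listed at 3.31 and 3.49 FPKM in PP sham, 5.83 and 6.64 FPKM in PPK sham, 6.31 and 6.33 FPKM in PP ADT, and 26.6 and 27.1 FPKM in PPK ADT. It was 4.24-fold higher in PPK than in PP under ADT (1.93 ± 0.068, limma adjusted p = 1.48e-06). Arg2, the mitochondrial arginase that forms ornithine, ran the other way, from 11.3 and 12.7 FPKM in PP sham to 6.19 and 5.61 FPKM in PPK sham, 4.49 and 4.64 FPKM in PP ADT and 1.00 and 1.21 FPKM in PPK ADT. It was lower in PPK in sham (-0.91 ± 0.090, adjusted p = 0.000603) and in ADT (-1.40 ± 0.090, adjusted p = 2.13e-05). Oat, ornithine aminotransferase, which draws on the same ornithine, was at 33.0 and 32.2 FPKM in PP sham, 23.6 and 19.9 FPKM in PPK sham, 9.10 and 8.70 FPKM in PP ADT, and 20.7 and 19.1 FPKM in PPK ADT. It fell in PP by 1.76 ± 0.083, and its genotype effect was 1.64 ± 0.12 higher in ADT than in sham, the largest such difference in the list. Arg1, the cytosolic arginase, was named after its values were seen because it moved opposite to Arg2. Its levels were 32.4 and 31.5 FPKM in PP sham, 44.3 and 43.3 FPKM in PPK sham, 50.2 and 49.8 FPKM in PP ADT, and 76.2 and 78.2 FPKM in PPK ADT, above Arg2 in every library. It was higher in PPK at both stages (0.62 ± 0.032 in ADT, limma adjusted p = 8.33e-06) and rose from sham to ADT in both genotypes (0.80 ± 0.032 in PPK, adjusted p = 2.15e-06).

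Eif5a encodes a translation factor that carries hypusine, an amino acid made from spermidine, and its paralogue Eif5a2 was listed at or under 0.350 FPKM. It was listed at 81.6 and 81.2 FPKM in PP sham, 93.1 and 89.4 FPKM in PPK sham, 84.8 and 89.8 FPKM in PP ADT, and 183 and 170 FPKM in PPK ADT. PPK ADT was 2.02-fold above PP ADT (1.01 ± 0.047, limma adjusted p = 4.93e-06), and Odc1 and Srm were highest in PPK ADT too. Among transporters, Slc12a8, a solute carrier, was lower in PPK sham than in PP sham (-0.91 ± 0.097, adjusted p = 0.000864), at a mean of 1.23 FPKM against 3.19 FPKM. Mat2a, which makes S-adenosylmethionine, fell in PPK from 79.6 and 50.2 FPKM in sham to 29.0 and 30.2 FPKM in ADT (-1.07 ± 0.29, adjusted p = 0.0177).

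**Figure D5:**
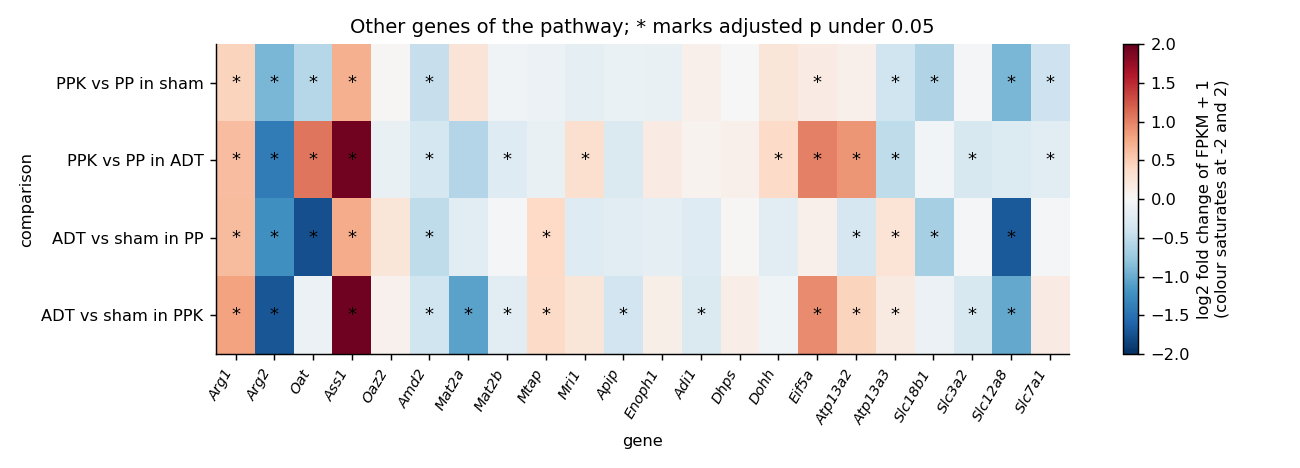
Log2 fold change of FPKM + 1 (colour, red higher and blue lower, saturating at -2 and 2) of tested genes of the wider polyamine pathway (columns, all but 1 of the 23) in 4 comparisons (rows). Stars mark a limma adjusted p under 0.05. Ass1 and Eif5a are red in PPK against PP under ADT, at 1.93 and 1.01, and Arg2 is blue in all 4 comparisons.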

How the data were processed

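FPKM values were computed by the authors from strand-specific TruSeq libraries of Trizol-extracted total RNA, per the labels, and deposited as 1 table per library. FastQC 0.11.2 and the mm10 build are listed in the submitters' processing notes. No aligner, quantifier or annotation is stated in them. The tables hold no counts. Whole reads could not be recovered from steps between low values, so the depth is unknown and counting intervals are left out. Organoid experiments were not analysed here.

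Joining the 8 tables gave 55335 identifiers, of which 55154 had a symbol in GENCODE M21 on GRCm38. Genes with at least 1 FPKM in at least 2 libraries (14000) entered a limma fit (version 3.58.1, R 4.3.3) of log2(FPKM + 1) on the 4 groups. The spread followed a mean-variance trend, on 4 residual plus 2.4 prior degrees of freedom. There were 5 comparisons with Benjamini-Hochberg adjustment over all genes tested. The fit was tested on simulated data in which 200 genes were changed for each comparison. That setting differs from the measured libraries, where 4000 to 8765 genes passed per comparison, so it does not bear on the calls given here. Near-identical copies were found with blastn 2.17.0 on transcripts (at least 90% identity over 300 bases of the sense strand, covering 50% of the copy's exons). Other steps ran in Python 3.11.15 (pandas 2.3.3, numpy 2.4.6, matplotlib 3.10.9).

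All 10 members are named. From the wider pathway up to 4 genes per comparison were eligible, those passing with the largest change, and some of their values are given for other comparisons. Some items that these rules or the labels name are not reported here. For Odc1 and Sat1 the 3 genes with the highest Pearson correlation were named among tested genes with a mean of at least 5 FPKM, without predicted models. Kmt2c checks the labels, and annotated copies at 1 FPKM or more are named with their levels. The members and lists were chosen with earlier results of these data known. Alternatives changed the pseudocount, filter, scaling, block, groups fitted, trend and libraries.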

Additional observations from a re-analysis of the deposited data

Results flagged for a closer look

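For 9 of the 10 polyamine genes the effect of the PPK genotype differed between ADT and sham mice by a limma test of the difference itself (log2 fold change in ADT minus that in sham, ± SE). Among synthesis genes the difference was 1.08 ± 0.074 for Odc1 (adjusted p = 4.3e-05), 1.57 ± 0.101 for Srm (adjusted p = 3.17e-05), 0.50 ± 0.094 for Sms (adjusted p = 0.00445) and -0.33 ± 0.056 for Amd1 (adjusted p = 0.00294). For the antizyme inhibitors it was 0.64 ± 0.16 for Azin1 (adjusted p = 0.0154) and -1.31 ± 0.13 for Azin2 (adjusted p = 0.000228). Among catabolic genes it was -0.56 ± 0.040 for Sat1 (adjusted p = 5.26e-05), -0.46 ± 0.14 for Smox (adjusted p = 0.036) and 0.92 ± 0.15 for Paox (adjusted p = 0.00251). The difference for Smox did not pass without PP sham library B, PPK sham library B or any 1 of the PP ADT and PPK ADT libraries, in 6 of 8 such fits (adjusted p = 0.0655 to 0.102). All of these rest on 2 libraries per group, and 30.0% of all genes tested passed this test as positive and 22.8% as negative.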

How the results depend on the processing

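The number of members that passed stayed within 1.5 times that of the reported fit under the settings tried, except for PPK against PP in ADT with a mean of at least 5 FPKM, where 4 of the 7 members left to test passed in place of 7 of 10. With 1 library left out, that number was 3 to 5 for PPK against PP in sham, 6 to 7 in ADT, 7 to 9 for ADT against sham in PP, 6 in PPK and 8 to 9 for the difference of effects. The direction turned only for differences that had not passed. With 1 library left out these ran from -0.081 to 0.057 for Srm, -0.091 to 0.14 for Paox (both PPK against PP in sham), -0.031 to 0.0039 for Sat1, -0.066 to 0.23 for Azin1, -0.23 to 0.33 for Oaz1 (PPK against PP in ADT) and -0.10 to 0.45 for Oaz1 (ADT against sham in PP). With quantile normalization Srm in sham was 0.0054, and with median-of-ratios scaling Azin1 and Oaz1 in ADT were -0.017 and -0.049. The cause was not tested. Of all genes that passed for PPK against PP in ADT, 54.6% were higher in PPK, against 47.3% with median-of-ratios scaling. Letters A and B correlated between groups at -0.00791 to 0.0566 and were not taken as pairs. With the letter as a replicate block only the difference of effects of Smox lost its call (-0.46, limma adjusted p = 0.055), as it also did with no filter (0.0855) and no trend (0.0516), and that of Azin1 did without PPK sham library A (0.0524). Amd1 from sham to ADT in PP also missed the threshold with no filter (0.0719), no trend (0.109) and only its 2 groups (0.0555). Fitting only the groups compared was not possible for the difference of effects. Summing copies was chosen after seeing the data. Without counts, depth limits low genes such as Paox and Azin2 to an unknown degree.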
